A study of Mus musculus with 4 samples.

Results

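The genes described here belong to the enzyme families known for attaching glutathione, glucuronic acid or sulfate to small molecules. They were chosen by symbol, as the mouse genes of build GRCm38 named Gsta, Gstk, Gstm, Gsto, Gstp, Gstt, Gstz, Mgst, Ugt or Sult followed by a number, with pseudogene symbols left out. The rule found 68 of the 47729 genes listed in the files. They were 25 glutathione S-transferases (GSTs), 22 genes of the UDP-glucuronosyltransferase (UGT) families and 21 cytosolic sulfotransferases (SULTs). Not every gene named Ugt encodes an enzyme that transfers glucuronic acid, and Ugt8a makes galactosylceramide. Expression was measured by sequencing of polyA RNA from the lungs of BL/6 mice of the genotype Control (Rosa), and mice with a KCNK3 mutation, which the design text of the series also names, were not analysed here. In the Sugen-Hypoxic group the mice received hypoxia along with Sugen, which blocks VEGF receptors, a rodent model of pulmonary hypertension. The Normoxic group shared strain and genotype, and which allele "Rosa" denotes is not given in the sources used here, nor are ages, doses, oxygen levels or durations. Each group had 2 libraries of pooled animals, taken from the sex entries as 2 males in each of the Sugen-Hypoxic replicates 1 and 2, against 3 females in Normoxic replicate 1 and 1 female with 2 males in Normoxic replicate 2. Both Sugen-Hypoxic pools were all male and neither Normoxic pool was, so treatment and sex are largely confounded, and Sugen and hypoxia cannot be told apart.

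Conjugation makes reactive or fat-soluble compounds water soluble so that they can leave the cell. GSTs join glutathione to electrophiles such as lipid peroxidation products, most UGTs transfer glucuronic acid from UDP-glucuronate, and SULTs transfer sulfate from the donor PAPS. In the lung these enzymes are known above all from the airway epithelium, where club cells carry much of the metabolism of inhaled chemicals. Some of the genes are textbook targets of the transcription factor NRF2, which answers oxidants through antioxidant response elements, and some, such as Ugt1a6a, of the aryl hydrocarbon receptor (AhR), which binds xenobiotic response elements after activation by a ligand.

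Gene counts summed to 57319562 and 65343196 reads in Sugen-Hypoxic replicates 1 and 2, against 67135829 and 58224122 reads in Normoxic replicates 1 and 2. The extraction text names kidneys while the source label gives lung. Markers of lung identity summed to 32158.9 and 28867.2 CPM (reads per 1000000 reads counted to genes) in Sugen-Hypoxic libraries, against 35792.2 and 34697.0 CPM in Normoxic libraries, and 7 kidney markers summed to at most 0.761 CPM in any library. Xist, expressed from the inactive X chromosome of females, was at 0.505 and 0.512 CPM in the all-male Sugen-Hypoxic pools, against 494.5 and 148.9 CPM in the Normoxic pools, the order that the sex entries give. Here and below, higher, lower, rose and fell mean an adjusted p under 0.05 in edgeR's quasi-likelihood test with Benjamini-Hochberg adjustment over the 18783 genes tested, and CPM are scaled by TMM factors.

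Of the 68 genes, 32 had enough reads to be tested, and 6 of these changed. Gstp1 rose 1.72-fold, while the sulfotransferases Sult1d1 and Sult1a1 fell 2.61-fold and 1.85-fold and the glutathione transferases Gstk1, Gsta4 and Gstt2 fell 1.48-fold, 1.40-fold and 1.39-fold. The 6 calls are 18.8% of the tested members, against 11.5% of all genes tested. In one direction, 1 of 32 rose, against 5.51% of all genes, and 5 of 32 fell, against 6.01% of all genes. The median log2 fold change of the tested members was -0.29 against -0.004 over all genes. A negative sign was seen for 22 of 32 members (68.8%), against 50.5% of all genes. Over the 12 alternatives tried, the number of members with a negative sign ran from 19 to 26. CPM of the groups did not overlap for 22 of the 32 members, with all Sugen-Hypoxic values below all Normoxic values for 17 of them. Over all genes tested, 61.7% had groups that did not overlap and 31.7% had Sugen-Hypoxic values entirely below. In whole lung RNA, fewer cells of a type and less RNA per cell cannot be told apart.

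**Figure D1:**
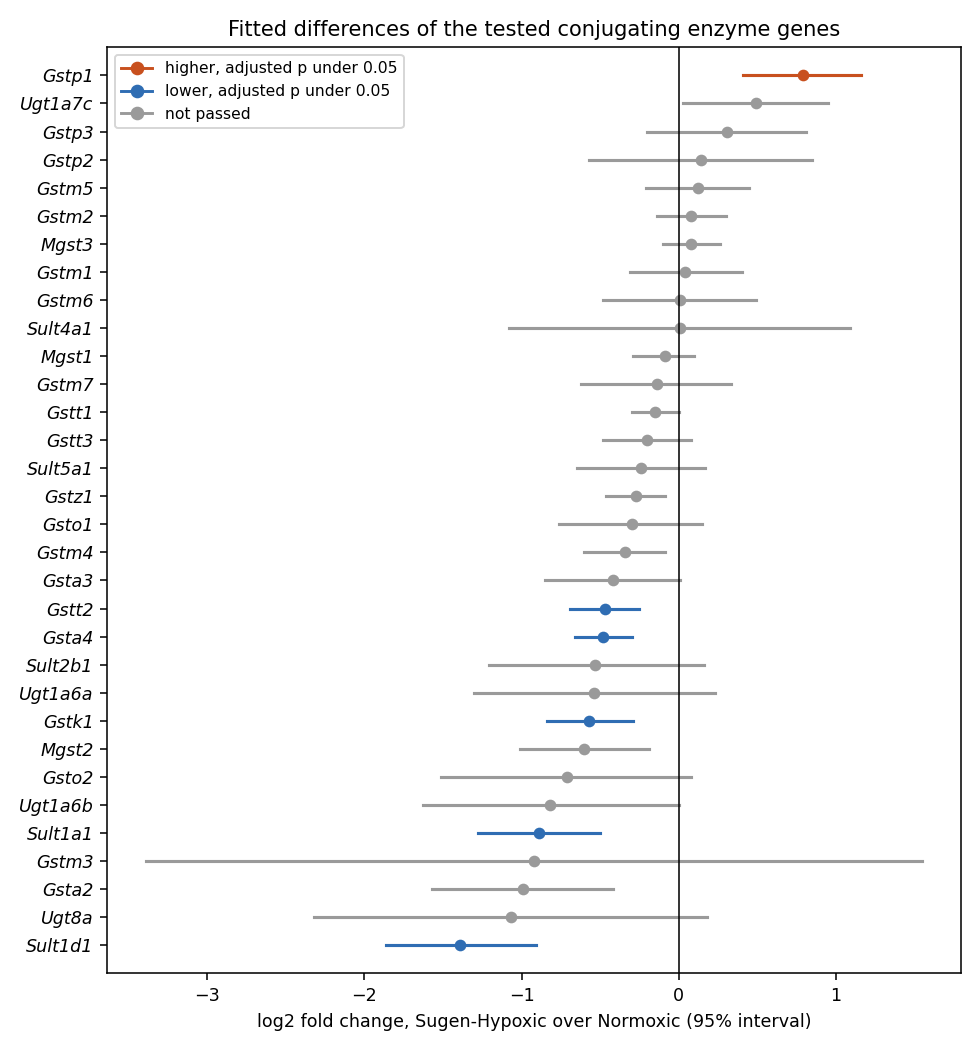
Log2 fold change, Sugen-Hypoxic over Normoxic, of the 32 tested conjugating enzyme genes (points) with 95% intervals from edgeR's quasi-likelihood fit (lines), 2 libraries per group. Gstp1 at 0.79 is the gene at the top, Sult1d1 at -1.39 the one at the bottom, and the 6 coloured genes passed an adjusted p of 0.05.

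Of the 10 club and 10 ciliated cell markers of the airway, 7 and 10 had a negative sign, against 50.5% of all genes tested. Over all genes, 5.51% were higher and 6.01% lower, the shares to set beside the marker counts that follow. The 10 club cell markers summed to 15415.6 and 12468.8 CPM in Sugen-Hypoxic libraries, against 19934.4 and 19579.5 CPM in Normoxic libraries, with 5 lower, 0 higher and a median log2 fold change of -0.50. Of its defining genes, Cbr2 fell by 0.84 and Cyp2f2 by 0.61, and Scgb1a1 had -0.49 and did not pass (adjusted p = 0.0852). A positive sign was seen for 3 of the 10, Kcne3 (0.64), Nupr1 (0.05) and Hp (0.04), and none of these passed. Aldh1a1 had -0.14 and its groups overlapped. The 10 ciliated cell markers summed to 359.1 and 375.1 CPM in Sugen-Hypoxic libraries, against 576.4 and 565.9 CPM in Normoxic libraries, with 10 lower and a median of -0.66. Alveolar type 2 markers had 1 of 8 lower and a median of -0.07. T and NK cell markers summed to 21.8 and 24.3 CPM in Sugen-Hypoxic libraries, against 55.1 and 49.0 CPM in Normoxic libraries, with 8 of 8 lower. Neutrophil markers, 6 of 6 lower, summed to 274.0 and 208.7 CPM in Sugen-Hypoxic libraries, against 475.9 and 625.5 CPM in Normoxic libraries. B cell markers had 5 of 6 lower and a median of -1.33, while Ighm, an immunoglobulin gene, did not pass (adjusted p = 0.884). In the upward direction, endothelial markers had 3 of 9 higher with a median of 0.34 and smooth muscle markers 4 of 7 higher with a median of 0.33. Goblet cell markers, which include secreted mucins, summed to 40.0 and 342.7 CPM in Sugen-Hypoxic libraries, against 177.8 and 110.8 CPM in Normoxic libraries, so the Sugen-Hypoxic pair differed by more than the groups did. Of 8 alveolar macrophage markers 1 was higher, with a median of 0.26, and that gene, Chil3, carried most of a sum of 1941.3 and 4907.5 CPM in Sugen-Hypoxic libraries, against 991.8 and 878.4 CPM in Normoxic libraries. The part of these cell types in the changes of Gsta4, Gstk1, Gstt2, Sult1a1, Sult1d1 and Gstp1 was not tested.

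The promoter sequences of 4 members are shown because they hold, or lack, the short words linked to the NRF2 and AhR pathways: Gstp1 as the gene that rose, Sult1a1 and Sult1d1 as the pair with the steepest falls among those that passed, and Ugt1a6a as a known AhR target. Each is the window of 250 bases before to 50 bases after the start of the RefSeq transcript on GRCm38.p6, read 5′ to 3′ on the gene's strand. Capitals mark matches on either strand to the AhR core GCGTG and to the antioxidant response core TGANNNNGC, so that a reverse match shows as the reverse complement of the motif.
Gstp1: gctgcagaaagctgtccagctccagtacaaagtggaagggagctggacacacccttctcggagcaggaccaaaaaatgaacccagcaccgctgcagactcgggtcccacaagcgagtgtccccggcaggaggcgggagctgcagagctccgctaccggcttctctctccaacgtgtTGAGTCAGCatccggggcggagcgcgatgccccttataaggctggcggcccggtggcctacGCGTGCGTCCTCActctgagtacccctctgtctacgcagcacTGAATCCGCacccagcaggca
Sult1a1: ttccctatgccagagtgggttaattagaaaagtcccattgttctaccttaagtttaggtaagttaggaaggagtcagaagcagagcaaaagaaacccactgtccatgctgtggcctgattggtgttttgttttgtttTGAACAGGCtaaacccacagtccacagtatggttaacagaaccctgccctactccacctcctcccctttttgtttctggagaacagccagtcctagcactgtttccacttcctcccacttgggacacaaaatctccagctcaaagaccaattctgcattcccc
Sult1d1: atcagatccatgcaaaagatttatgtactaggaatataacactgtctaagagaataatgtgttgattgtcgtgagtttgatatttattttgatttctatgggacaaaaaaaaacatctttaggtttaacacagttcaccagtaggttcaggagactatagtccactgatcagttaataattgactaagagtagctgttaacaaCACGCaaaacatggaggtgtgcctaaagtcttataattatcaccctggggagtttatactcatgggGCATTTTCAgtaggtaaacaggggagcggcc
Ugt1a6a: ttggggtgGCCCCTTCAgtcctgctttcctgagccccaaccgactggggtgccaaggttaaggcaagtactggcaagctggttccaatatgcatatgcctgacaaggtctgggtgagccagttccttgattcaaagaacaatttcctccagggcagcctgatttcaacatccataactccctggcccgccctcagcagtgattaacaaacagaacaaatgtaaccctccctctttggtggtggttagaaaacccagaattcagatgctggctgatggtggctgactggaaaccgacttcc
The Gstp1 window at chr19:4037863-4038162 on the minus strand holds the antioxidant core as TGAGTCAGC 74 bases before the start and as TGAATCCGC with its first base at position 30, and on the reverse strand as GCGTCCTCA 9 bases before the start. That reverse match overlaps by a base the GCGTG that lies 13 bases before the start, so both stand as one run of capitals. These words are not particular to the gene that rose. The Gstp2 window, not printed, holds the same TGAGTCAGC 89 bases before its start. The Gstp3 window holds 2 antioxidant cores and 1 GCGTG, and neither Gstp2 nor Gstp3 passed. The Sult1a1 window at chr7:126676369-126676668 on the minus strand holds TGAACAGGC 113 bases before the start and no GCGTG. In the Sult1d1 window at chr5:87568957-87569256 on the minus strand, CACGC lies 47 bases before the start and GCATTTTCA begins at position 20. The Ugt1a6a window at chr1:88134559-88134858 on the plus strand holds GCCCCTTCA 242 bases before the start and no GCGTG. Such words are common. GCGTG was found in 32.4% of the 32851 mouse promoter windows and in 15 of the 72 windows of the conjugating enzyme genes, and TGANNNNGC in 41.3% of all windows and 30 of the 72. A window was given for 60 of the 68 members, and a match in these letters is not a measured binding site.

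The GSTs made up most of the conjugating enzyme signal in these lungs. Summed over the class, GSTs reached 1306.9 and 1097.7 CPM in Sugen-Hypoxic libraries, against 1279.7 and 1216.3 CPM in Normoxic libraries, and the groups overlapped. Of 25 GST genes, 23 were tested, 1 rose, 3 fell and 19 did not pass. Levels of different genes were compared per kb of exon length that no other gene on the same strand shares. On that scale Gstm1, a mu class enzyme of broad electrophile specificity, averaged 279.7 CPM per kb over the 4 libraries and lay above every other member in every library. Mgst1, a membrane-bound transferase that also reduces lipid peroxides, followed at 81.8 and Gstm2 at 77.7 CPM per kb, and the library values of Mgst1 and Gstm2 overlapped. Gstp1 averaged 48.1, Gstt1 39.2, Gsto1 37.0, Sult1a1 30.7, Gsta4 29.4, Gsta3 24.6, Mgst3 23.2 and Gstk1 19.7 CPM per kb, and each of these overlapped its neighbour in the order. Below Gstk1 there was a gap without overlap to Gstz1 at 7.43 CPM per kb, and the highest UGT, Ugt1a7c, stood at 4.15 CPM per kb.

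**Figure D2:**
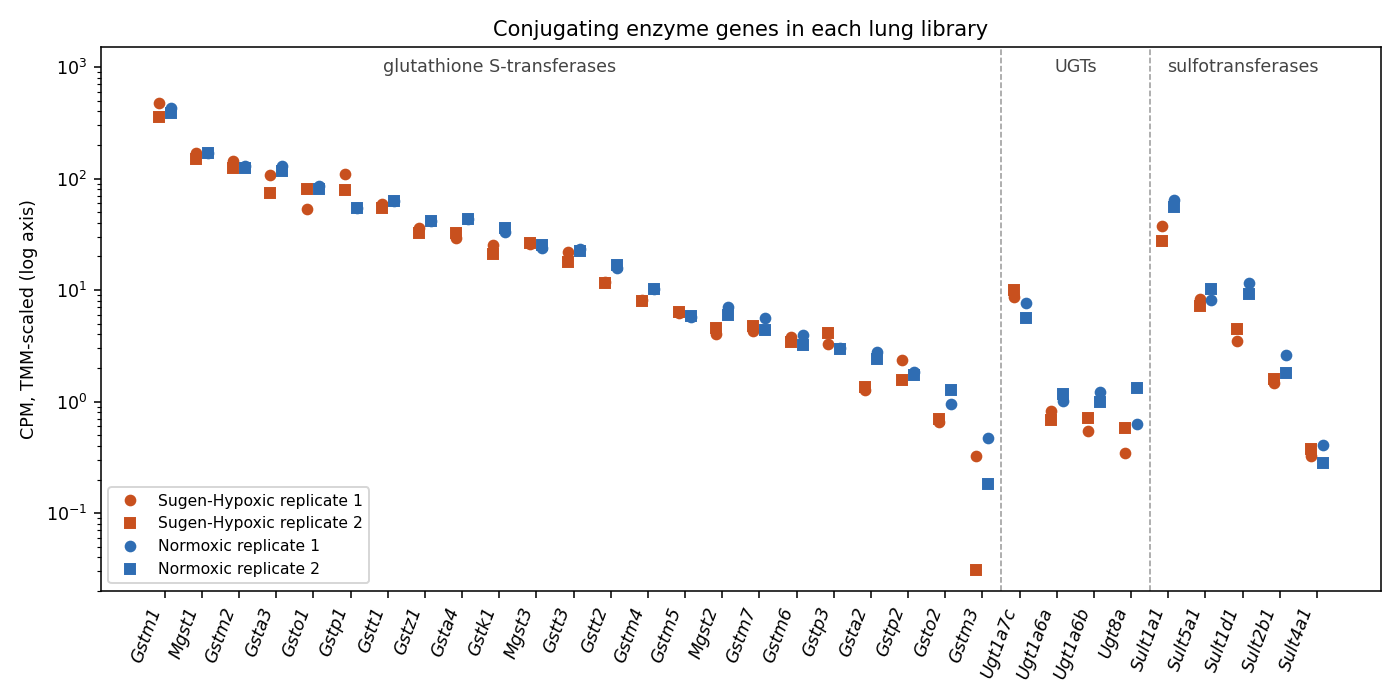
CPM (log axis, TMM-scaled) of the 32 tested genes in each of the 4 libraries, with Sugen-Hypoxic libraries to the left of Normoxic ones for each gene; values are not per length, so they compare libraries within a gene. Gstp1 lies above and Sult1a1, Sult1d1, Gsta4, Gstk1 and Gstt2 lie below their Normoxic values in both Sugen-Hypoxic libraries.

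Gstp1 encodes the pi class transferase, an epithelial and stress-associated enzyme that also binds JNK. It had 109.4 and 79.2 CPM in Sugen-Hypoxic lungs, against 54.9 and 54.5 CPM in Normoxic lungs. The Sugen-Hypoxic replicates differed more from each other than the Normoxic ones did, yet both lay above both Normoxic values. The log2 fold change was 0.79 ± 0.15 (SE, adjusted p = 0.0308). Gstp1 lies on chromosome 19 from 4035407 to 4037985 on the minus strand of GRCm38. Beside it lie its near copy Gstp2 and Gstp3, which shares no 50-base word with another gene. Of the 50-base words in Gstp1 transcripts, 33.7% also occur in Gstp2, and reads that fit both places equally were not counted for either, so the count of Gstp1 rests on the remainder. Gstp2 had 2.36 and 1.57 CPM in Sugen-Hypoxic lungs, against 1.83 and 1.74 CPM in Normoxic lungs, and Gstp3 had 3.27 and 4.15 CPM, against 3.01 and 2.99 CPM. Neither neighbour passed the test, with adjusted p of 0.784 for Gstp2 and 0.364 for Gstp3.

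The alpha class acts on the products of lipid peroxidation. Gsta4, whose preferred substrate is 4-hydroxynonenal, had 29.5 and 32.6 CPM in Sugen-Hypoxic lungs, against 43.3 and 43.5 CPM in Normoxic lungs. The groups were well apart relative to the spread within each, and Gsta4 fell by 0.48 ± 0.07 on the log2 scale (SE, adjusted p = 0.0177). The gene spans 78182774 to 78209349 on the plus strand of chromosome 9 and shares no 50-base word with another gene. In the same comparison 5 of 10 club and 10 of 10 ciliated cell markers were lower, with medians of -0.50 and -0.66, against 6.01% of all genes lower. So were 8 of 8 T and NK cell, 5 of 6 B cell and 6 of 6 neutrophil markers. Of endothelial and smooth muscle markers, 3 of 9 and 4 of 7 were higher, against 5.51% of all genes. The part of any of these cells in the fall of Gsta4 was not tested. Gsta2 had 1.26 and 1.34 CPM in Sugen-Hypoxic lungs, against 2.77 and 2.40 CPM in Normoxic lungs, a log2 fold change of -0.99 ± 0.23 that missed the threshold (adjusted p = 0.0511). It passed in 7 of the 12 alternatives tried, and 49.8% of its words occur in other genes, chiefly Gsta1. Gsta3, the alpha member with the next lower level per kb after Gsta4, had 108.3 and 74.7 CPM in Sugen-Hypoxic lungs, against 128.3 and 115.7 CPM in Normoxic lungs (log2 fold change -0.42, adjusted p = 0.177). It was -0.71 without Sugen-Hypoxic replicate 1, where it passed (adjusted p = 1.76e-06), and -0.17 without Sugen-Hypoxic replicate 2, and it also passed with no filter beyond a count above 0 (adjusted p = 0.026). In all 3 tested alpha genes both Sugen-Hypoxic values lay below both Normoxic values, as they did for 31.7% of all genes tested. Gsta1 was not tested, with at most 10 reads in a library, and 90.5% of its words occur in other genes, chiefly Gm3776.

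Gstk1, a transferase of mitochondria and peroxisomes that is unrelated in sequence to the other soluble classes, had 25.6 and 21.1 CPM in Sugen-Hypoxic lungs, against 33.1 and 36.0 CPM in Normoxic lungs. It fell by 0.57 ± 0.11 on the log2 scale (SE, adjusted p = 0.0332). Gstk1 lies on the plus strand of chromosome 6 from 42245935 to 42250447, shares no 50-base word with another gene, and its promoter window held neither motif. Gstt2, a theta class enzyme active on small halogenated and sulfate-bearing substrates, had 11.9 and 11.5 CPM in Sugen-Hypoxic lungs, against 15.8 and 16.8 CPM in Normoxic lungs. It fell by 0.47 ± 0.09 (SE, adjusted p = 0.0298) and lies on chromosome 10 from 75831114 to 75837424 on the minus strand. Gstt1 had 58.6 and 54.8 CPM in Sugen-Hypoxic lungs, against 63.4 and 62.5 CPM in Normoxic lungs. The groups of Gstt1 and of Gstt3 did not overlap, but neither passed (Gstt1 -0.15, adjusted p = 0.17; Gstt3 -0.20, adjusted p = 0.292). Without Sugen-Hypoxic replicate 1 both passed, at -0.20 for Gstt1 and -0.35 for Gstt3. Gstt4 was not tested, with at most 5 reads in a library.

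None of the 7 mu genes, a cluster on chromosome 3, passed edgeR's quasi-likelihood test. Gstm4 alone among them reached an unadjusted p under 0.05, and neither DESeq2 nor limma-voom called any (0 each). Gstm1 had 477.2 and 359.6 CPM in Sugen-Hypoxic lungs, against 426.0 and 385.4 CPM in Normoxic lungs, so the Sugen-Hypoxic values lay on either side of the Normoxic ones. Its log2 fold change was 0.04 ± 0.14 with a 95% interval of -0.31 to 0.40, and the sign turned under other scalings (-0.03 by library size alone). Gstm2 had 144.5 and 123.5 CPM in Sugen-Hypoxic lungs, against 130.0 and 123.9 CPM in Normoxic lungs, with an interval of -0.14 to 0.30. A fall of the size fitted for Gsta4, -0.48, lies outside both intervals. Without Sugen-Hypoxic replicate 2 both passed, at 0.24 for Gstm1 and 0.19 for Gstm2, and without Sugen-Hypoxic replicate 1 they were -0.17 and -0.04. Gstm4 had 8.18 and 8.0 CPM in Sugen-Hypoxic lungs, against 10.2 and 10.3 CPM in Normoxic lungs (-0.34, adjusted p = 0.0896). Gstm5, Gstm6 and Gstm7 had log2 fold changes between -0.14 and 0.12, and Gstm3, at 0.468 CPM or less in every library, had -0.92 ± 0.99. Gstm6 was 0.01, and -0.06 by library size alone, and with the male fraction as a covariate Gstm3 was 0.59 and Gstm7 0.25.

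Among the omega, zeta and microsomal classes, 0 genes passed edgeR's quasi-likelihood test, 2 had an unadjusted p under 0.05, DESeq2 called 1 and limma-voom 0. Gsto1, an omega class enzyme with thioltransferase activity, had 53.5 and 80.5 CPM in Sugen-Hypoxic lungs, against 85.0 and 80.4 CPM in Normoxic lungs. Sugen-Hypoxic replicate 1 alone was low, replicate 2 stood among the Normoxic values, and the log2 fold change of -0.30 ± 0.18 did not pass (adjusted p = 0.326), though without replicate 2 it was -0.63 and passed. Gsto2 had -0.71 ± 0.32 at 1.27 CPM or less (adjusted p = 0.202). Gstz1, which isomerises maleylacetoacetate in tyrosine breakdown, had 36.1 and 32.4 CPM in Sugen-Hypoxic lungs, against 41.3 and 41.5 CPM in Normoxic lungs (-0.27 ± 0.07, adjusted p = 0.0712). It passed by library size alone (-0.34), with upper-quartile factors (-0.33), with no filter beyond a count above 0 (-0.27) and without Sugen-Hypoxic replicate 1 (-0.35). Mgst1 had 170.0 and 148.9 CPM in Sugen-Hypoxic lungs, against 169.9 and 169.8 CPM in Normoxic lungs, and its groups overlapped through Sugen-Hypoxic replicate 1 (-0.09 ± 0.08, adjusted p = 0.483). Without that replicate it was -0.19 and passed. Mgst2, which can also make leukotriene C4, had 4.01 and 4.60 CPM in Sugen-Hypoxic lungs, against 7.01 and 6.02 CPM in Normoxic lungs (-0.60 ± 0.17, adjusted p = 0.0747). Mgst2 was the gene DESeq2 called (adjusted p = 0.0385), and edgeR called it with no filter beyond a count above 0 (adjusted p = 0.037) and without Sugen-Hypoxic replicate 2 (-0.70, adjusted p = 0.0139). Mgst3 differed little, at 0.08 with an interval of -0.10 to 0.26.

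The UGTs were weakly expressed and 0 of the 4 that could be tested passed edgeR's quasi-likelihood test. Unadjusted p fell under 0.05 for 2 of the 4, and DESeq2 and limma-voom called 0 each. The class summed to 10.5 and 12.1 CPM in Sugen-Hypoxic libraries, against 10.8 and 9.38 CPM in Normoxic libraries. Ugt1a7c carried most of this, with 8.59 and 9.97 CPM in Sugen-Hypoxic lungs, against 7.62 and 5.57 CPM in Normoxic lungs. Both Sugen-Hypoxic values were above both Normoxic values, and the log2 fold change of 0.49 ± 0.19 had an unadjusted p of 0.041 and an adjusted p of 0.148. With a library left out it ran from 0.28 to 0.74 and passed without Sugen-Hypoxic replicate 1 (0.59, adjusted p = 0.0229), and it was 0.96 with the male fraction of the pools as a covariate. The AhR target Ugt1a6a had 0.83 and 0.683 CPM in Sugen-Hypoxic lungs, against 1.01 and 1.18 CPM in Normoxic lungs (-0.54 ± 0.31, adjusted p = 0.30). Its neighbour Ugt1a6b had 0.541 and 0.714 CPM in Sugen-Hypoxic lungs, against 1.21 and 1.0 CPM in Normoxic lungs (-0.82 ± 0.33, adjusted p = 0.165). The sign of both was thus opposite to that of Ugt1a7c, and for both the Sugen-Hypoxic values lay below the Normoxic ones. Ugt8a, which makes galactosylceramide and conjugates no xenobiotic, had 0.343 and 0.574 CPM in Sugen-Hypoxic lungs, against 0.629 and 1.32 CPM in Normoxic lungs (-1.07 ± 0.50, adjusted p = 0.221). It ran from -1.51 without Normoxic replicate 1 to -0.45 without Normoxic replicate 2, and was -2.05 with that covariate.

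Mouse Ugt1a genes are built from separate first exons spliced to a common set of downstream exons on chromosome 1. Reads in that common part belong to several genes at once and are left out of gene counts, so each Ugt1a value above rests on the gene's own first exon and any other unshared sequence. In their transcripts 52.1% of the 50-base words of Ugt1a6a, 79.8% of those of Ugt1a6b and 53.7% of those of Ugt1a7c occur in another gene. The summed output of the locus is therefore understated in every library, by the same rule in both groups. No UGT2 or UGT3 gene could be tested. Of the 10 UGT2 genes, which in the liver handle steroids and bile acids, 8 had 0 reads in every library, and Ugt2a3 and Ugt2b34 had at most 6 and 2 reads. Ugt2a1 and Ugt2a2 have only 30 and 140 unshared bases in exon lengths of 2570 and 2541. Their counts of 0 therefore say little about their expression. Of the pair of UGT3 genes, Ugt3a1 had 0 reads and Ugt3a2 had 2 reads in 1 Sugen-Hypoxic library.

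Summed over the SULT class, CPM were 51.1 and 41.3 in Sugen-Hypoxic libraries, against 88.3 and 77.2 in Normoxic libraries, a description with no test of its own. Sult1a1 and Sult1d1, the 2 SULT genes that passed, make up most of that gap. Sult1a1, the phenol sulfotransferase, had 37.4 and 27.6 CPM in Sugen-Hypoxic lungs, against 64.5 and 55.4 CPM in Normoxic lungs. It fell by 0.89 ± 0.16 on the log2 scale (SE, adjusted p = 0.0256), and the groups lay well apart. The gene is on chromosome 7 from 126672865 to 126676432 on the minus strand, and its promoter window is among those printed above. Sult1d1, which acts on catecholamines and eicosanoids in the mouse, had 3.48 and 4.49 CPM in Sugen-Hypoxic lungs, against 11.6 and 9.28 CPM in Normoxic lungs. With a log2 fold change of -1.39 ± 0.19 (SE, adjusted p = 0.0141), a 95% interval of -1.86 to -0.91, it fell furthest among the members that passed. It spans 87554645 to 87569027 on the minus strand of chromosome 5 and shares no 50-base word with another gene. In the same comparison the marker medians of club (-0.50) and ciliated (-0.66) cells lay below 0. Those of T and NK cells (-1.2), B cells (-1.33) and neutrophils (-1.19) lay further below. Endothelial (0.34) and smooth muscle (0.33) medians lay above 0. The part of any of these cells in the falls of Sult1a1 and Sult1d1 was not tested.

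For both sulfotransferases the order of the libraries also ran with the sex entries. Normoxic replicate 1, of females only, was highest, Normoxic replicate 2, of 1 female and 2 males, was next, and the all-male Sugen-Hypoxic pools were lowest. For Gstk1 and Gstt2 the mixed pool was instead the higher of the Normoxic pair, and for Gsta4 the pools of females and of both sexes had 43.3 and 43.5 CPM. With the male fraction of each pool entered as a further term (1 residual degree of freedom), the log2 fold changes were -0.66 for Sult1a1 and -1.06 for Sult1d1, and neither passed (adjusted p = 0.575 and 0.486 by edgeR's quasi-likelihood test). The part of sex in these results was not tested further.

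Of the other sulfotransferases, 3 were tested and 0 passed edgeR's quasi-likelihood test, 0 had an unadjusted p under 0.05, and DESeq2 and limma-voom called 0. Sult2b1, a cholesterol sulfotransferase of stratified epithelia, had 1.48 and 1.61 CPM in Sugen-Hypoxic lungs, against 2.63 and 1.82 CPM in Normoxic lungs (-0.53 ± 0.28, adjusted p = 0.266). Sult5a1 had 8.37 and 7.22 CPM in Sugen-Hypoxic lungs, against 8.06 and 10.3 CPM in Normoxic lungs, and overlapped (-0.24 ± 0.16, adjusted p = 0.383). Sult4a1, a brain form, stood at 0.41 CPM or less (0.01 ± 0.44, adjusted p = 0.995).

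The remaining 36 members had too few reads to be tested, and 22 of them had 0 reads in all 4 libraries, where a count of 0 allows up to 3 reads. The genes at 0 throughout were Sult1b1, Sult1c1, Sult1e1, Sult2a4, Sult2a5, Sult2a6, Sult2a7, Sult2a8, Sult3a1, Sult3a2, Sult6b1, Ugt1a9, Ugt1a10, Ugt2a1, Ugt2a2, Ugt2b1, Ugt2b5, Ugt2b35, Ugt2b36, Ugt2b37, Ugt2b38 and Ugt3a1. For Ugt2a1 and Ugt2a2, and in part for the Ugt1a genes, reads in shared exons were not counted, so a count of 0 says less. The other 14 were Gsta1, Gstt4, Sult1c2, Sult2a1, Sult2a2, Sult2a3, Sult6b2, Ugt1a1, Ugt1a2, Ugt1a5, Ugt1a8, Ugt2a3, Ugt2b34 and Ugt3a2. Sult2a1 stood out among these in 1 library. It had 0 and 0 reads in the Sugen-Hypoxic libraries, against 51 reads in the all-female Normoxic pool and 2 reads in the mixed Normoxic pool. Its near copy Sult2a2 had 0 and 0 reads in Sugen-Hypoxic libraries, against 10 and 0 reads in Normoxic libraries. Sult2a genes encode hydroxysteroid sulfotransferases that in mouse liver are expressed mainly in females. Albumin, a hepatocyte marker, was at 0.596 and 0.59 CPM in Sugen-Hypoxic libraries, against 0.644 and 0.534 CPM in Normoxic libraries, and 8 hepatocyte markers summed to 2.42 and 2.79 CPM, against 2.52 and 3.05 CPM. Of those sums Ahsg made up 1.5 and 1.91 CPM, against 1.33 and 2.22 CPM. Ttr had 0 and 0 reads in Sugen-Hypoxic libraries, against 9 and 2 reads in Normoxic libraries. Serpina1c had 0 and 0 reads, against 8 and 0. Apoa2 had 10 to 14 reads, and Apoa1, Fgb and Cps1 at most 4, in each library. Whether any library held liver RNA was not tested. Sult6b2, the SULT6 gene with any reads, had 0 and 2 reads in Sugen-Hypoxic libraries, against 0 and 0 in Normoxic libraries. Among members with reads, Ugt1a1, the bilirubin transferase, had 8 and 7 reads in Sugen-Hypoxic libraries, against 8 and 6 reads in Normoxic libraries.

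Genes around the conjugation step were read from lists of pathway members. Over all genes tested, 5.51% were higher and 6.01% lower, 11.5% in all, the shares to set beside the count of each list below. In glutathione synthesis and breakdown, 2 of 19 tested genes rose and 0 fell (9 had an unadjusted p under 0.05 in either direction, and DESeq2 called 6 and limma-voom 3 in all). Gclc, the catalytic subunit of the rate-limiting enzyme of glutathione synthesis, had 267.4 and 375.0 CPM in Sugen-Hypoxic lungs, against 191.6 and 172.9 CPM in Normoxic lungs (0.82 ± 0.16, adjusted p = 0.0345). Dpep2, a dipeptidase that cleaves leukotriene D4, rose by 0.59 and did not pass by library size alone (0.52, adjusted p = 0.0546 by edgeR's quasi-likelihood test). The median of that list was 0.02. Among NRF2 and its targets outside the conjugating families, 7 of 21 rose and 0 fell (13 had an unadjusted p under 0.05, and DESeq2 called 9 and limma-voom 7), with a median of 0.21. Nqo1, a quinone reductase that is also an AhR target, had 56.3 and 37.7 CPM in Sugen-Hypoxic lungs, against 6.53 and 5.54 CPM in Normoxic lungs, and Srxn1, Me1 and Hmox1 rose by 0.78, 0.70 and 0.52 on the log2 scale. Of the 21 genes, 14 did not pass and 4 had a negative sign. Gstp1 was the only member of the conjugating families that rose, while Gsta4 fell. A part of NRF2 in either change was not tested.

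**Figure D3:**
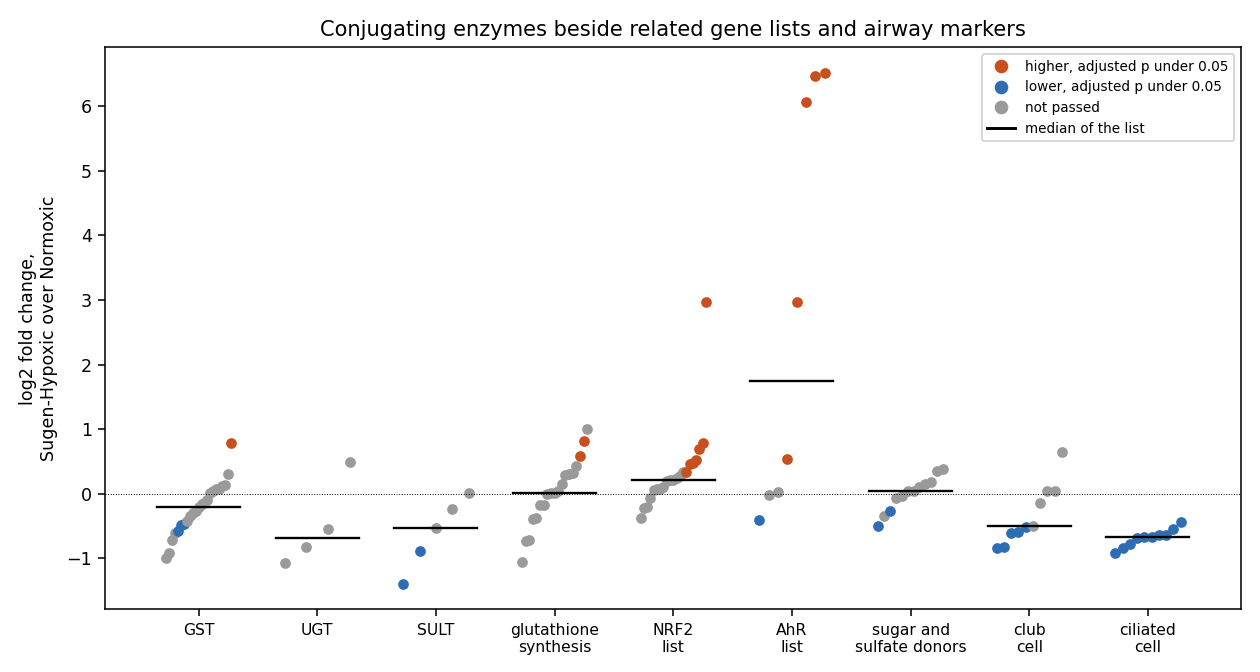
Log2 fold change, Sugen-Hypoxic over Normoxic, of each tested gene in the 3 enzyme classes, 4 related lists and 2 airway marker lists (points), with the median of each (black lines). The AhR list reaches 6.51 with a median of 1.75, while the GST and SULT medians are -0.20 and -0.53 and all 10 ciliated markers are below 0.

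The AhR list had 5 of 8 tested genes higher and 1 lower. Cyp1a1, the oxidase most used as a readout of the receptor, had 3021.1 and 2239.9 CPM in Sugen-Hypoxic lungs, against 50.4 and 7.12 CPM in Normoxic lungs. Cyp1b1 rose by 6.46 and the receptor's repressor Ahrr by 6.06 on the log2 scale. The receptor gene Ahr fell by 0.41. Ugt1a6a and Ugt1a6b, conjugating genes known as targets of the same receptor, had log2 fold changes of -0.54 and -0.82 in the same libraries, and neither passed.

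Supply of the sulfate and glucuronate donors was measured by 12 tested genes, of which 0 rose and 2 fell (6 had an unadjusted p under 0.05 in either direction, and DESeq2 called 5 and limma-voom 2). Papss2, which makes the sulfate donor PAPS, had 38.4 and 39.5 CPM in Sugen-Hypoxic lungs, against 54.2 and 55.4 CPM in Normoxic lungs (-0.49 ± 0.06, adjusted p = 0.00996). The sulfate transporter Slc26a2 fell by 0.27. Papss1, the other PAPS synthase, and Ugdh, which makes UDP-glucuronate, had 0.10 and -0.07 and did not pass. Of 10 conjugate export pumps, Abcc3 fell by 0.62 and Abcc5 rose by 0.29, the second a call lost by library size alone (0.22, adjusted p = 0.104) and with upper-quartile factors (0.24, adjusted p = 0.077). Of 7 tested xenobiotic nuclear receptors and partners, 0 passed edgeR's quasi-likelihood test (2 had an unadjusted p under 0.05, and DESeq2 and limma-voom called 0). Relatives outside the symbol rule had 2 of 13 higher, Ltc4s at 0.95, which makes leukotriene C4, and Hpgds at 0.81, the prostaglandin D synthase of the sigma GST class, and 2 lower, Clic6 at -0.58 and the tyrosylprotein sulfotransferase Tpst1 at -0.41. The call of Ltc4s was lost when reads of both strands were counted (0.71, adjusted p = 0.108).

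The 6 calls rest on few libraries. Each of the 6 genes kept its sign in every one of the 12 alternatives tried. Leaving out Sugen-Hypoxic replicate 1 or 2 kept all 6 calls, among 13 and 11 called members, in fits that called 25.7% and 24.4% of all genes tested, against 11.5% with all 4 libraries. By contrast, leaving out Normoxic replicate 1 or 2 left 0 members called by edgeR's quasi-likelihood test, with 8 members at an unadjusted p under 0.05 in either case. Without a Normoxic library, the count over all genes also fell, to 25 and 113 of those tested. The log2 fold changes over these 4 fits ran from 0.54 to 1.0 for Gstp1, from -1.58 to -1.21 for Sult1d1, from -1.12 to -0.68 for Sult1a1, from -0.71 to -0.43 for Gstk1, from -0.56 to -0.41 for Gsta4 and from -0.51 to -0.43 for Gstt2.

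**Figure D4:**
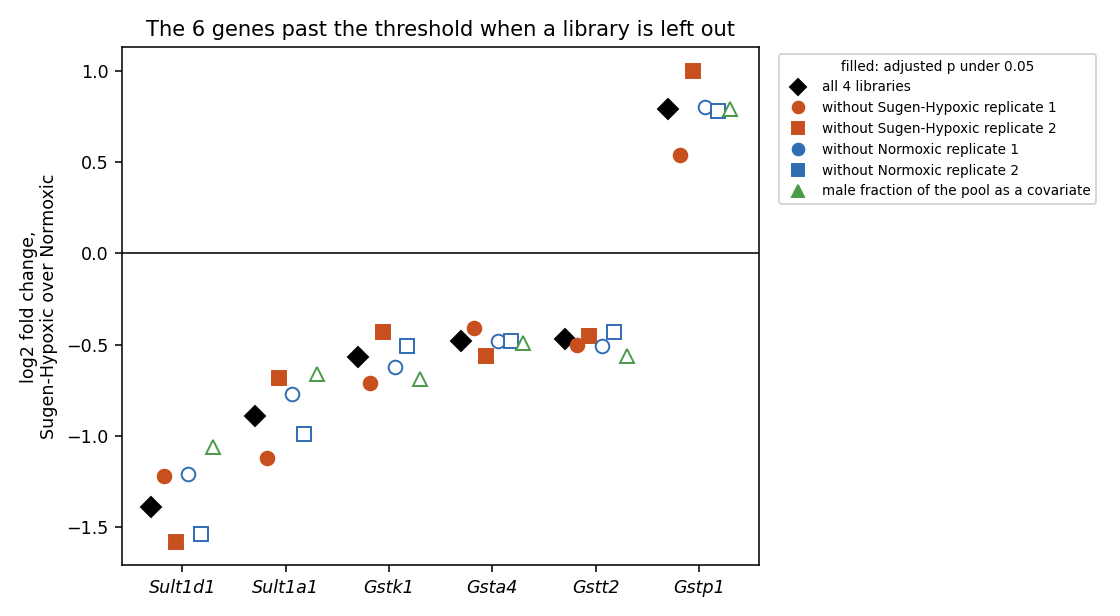
Log2 fold change, Sugen-Hypoxic over Normoxic, of the 6 genes that passed, with all 4 libraries, with each library left out in turn and with the male fraction of the pools as a covariate; filled symbols have an adjusted p under 0.05 in edgeR's quasi-likelihood test. Every symbol of a gene lies on the same side of 0, and the open symbols are the fits without a Normoxic library and the fit with the covariate.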

How the data were processed

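For each library the authors deposited a table of raw counts of reads per gene, unstranded and by strand. STAR 2.5.1b, HTSeq and build GRCm38.p4 are named in the submitters' processing notes. Neither the annotation nor the strandedness of the kit is given in the sources used here. Reads antisense to read 1 were 20.9 to 24.9 times as many as sense reads, so that column was used. Summary rows (unmapped 6.45 to 7.55%, multimapping 4.5 to 4.54%, no feature 7.73 to 9.98%, ambiguous 1.1 to 1.13% of reads) stayed out. Multimapping and ambiguous reads are not counted, which lowers genes with close copies or shared exons.

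Symbols, coordinates and exon lengths came from GENCODE M21 (47310 of 47729 identifiers matched), and promoters from RefSeq on GRCm38.p6. Genes were filtered with filterByExpr, scaled by TMM (factors 0.967 to 1.03) and tested with edgeR 4.0.16 (R 4.3.3, quasi-likelihood test, two-sided, Benjamini-Hochberg adjustment over all 18783 genes tested, threshold 0.05) with group as the only term. Standard errors come from the F statistic. The steps were tested on simulated data first. DESeq2 1.42.0 and limma 3.58.1 (voom) were among the 12 alternatives. Nothing says that the pools of a group were made independently of each other, so p-values measure the spread between these libraries, which may in part be technical.

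Values are given for every member that passed, the member of each family with the highest CPM per kb, members with an absolute log2 fold change of at least 1, Ugt1a6a and Ugt1a6b. Other tested members were added as context after their values were seen. Of the related lists, at most the 4 called members with the largest changes are named, and Ahr, Papss1 and Ugdh were added after their values were seen. Members and lists were chosen with earlier results of these data known.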

Additional observations from a re-analysis of the deposited data

How the results depend on the processing

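No paired analysis was possible because no label pairs a Sugen-Hypoxic library with a Normoxic library. Against 6 changed members (1 higher, 5 lower), 10 changed with no filter beyond a count above 0 (9 lower), and 0 changed in either direction with the male fraction as a covariate (7 at an unadjusted p under 0.05, edgeR), where 11 of all genes were called. Of 35 named genes followed through the alternatives, members and genes of the related lists together, 21 lost their call with that covariate. Another 13 kept their status, passed or not, and 1 turned its sign. The 35 include genes with no call to lose, such as Gstm1, Gsto1 and Ugt1a6a. The share of calls lost was therefore larger than 21 of 35. Leaving out a library gave 0 to 13 changed, 0 to 3 higher and 0 to 11 lower; there the lone library of a group is assumed to vary like the other group. All 6 calls were kept with DESeq2 (8 members called), limma-voom (7), DESeq2's size factors (6), upper-quartile factors (8), library size alone (8) and unstranded counts (6). Of all genes, DESeq2 called 18.7% and the fit with no filter beyond a count above 0 called 13.4%. The other settings in this list called 11.2 to 12.5% of all genes, against 11.5% in the main fit. Library size alone and upper-quartile factors moved the median of all genes to -0.073 and -0.055 and the share of higher genes among all calls to 32.6% and 35.9%, against 47.9%. By library size alone and upper-quartile factors, signs turned for Gstm1 (-0.03 and -0.01), Gstm6 (-0.06 and -0.05) and Sult4a1 (-0.06 and -0.04). With the covariate they turned for Sult2b1 (0.03), Gstm3 (0.59) and Gstm7 (0.25), and Mgst3 came to 0.0. With a library left out, values crossed or reached 0 for Gstm1 (-0.17 to 0.24), Gstm2 (-0.04 to 0.19), Gstm6 (-0.13 to 0.16), Gstm7 (-0.32 to 0.06), Gstp2 (-0.18 to 0.41), Mgst1 (-0.19 to 0.0) and Sult4a1 (-0.23 to 0.3). The cause was not tested. With 2 pools per group the spread between pools limits what could be called, and the members with the fewest reads have the widest intervals.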
